A study of Mus musculus with 6 samples.

Results

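The genes described here are the insulin-like growth factor binding proteins and Igf1, the growth factor they hold. They were taken as every protein-coding gene named Igfbp followed by a number, Igf1 or the receptor gene Igf1r in the deposited expression tables, with Igf2 left out of the set. The rule found 3 of 2031 genes: Igfbp4, Igfbp1 and Igf1. All 3 passed the filter on low values, set at 0.5 FPKM for the mean over libraries. The GENCODE M21 annotation holds 9 genes that the rule could name, 7 of them binding proteins; Igfbp2, Igfbp3, Igfbp5, Igfbp6, Igfbp7 and Igf1r were not analysed here. FPKM, the unit of level used below, is a count divided by the gene's length and the library's total, so it can be compared between genes.

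Insulin-like growth factors are secreted peptides that signal through the IGF1 receptor, a tyrosine kinase which acts through insulin receptor substrates and PI3 kinase. Binding proteins of the IGFBP family capture the growth factors outside the cell, prolong their life and keep them from the receptor until a protease cuts the binding protein. In the embryo the pathway controls growth of most tissues, and in the forming heart IGF signals act on the proliferation of muscle precursors.

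RNA was sequenced from cells derived from J1, a single mouse embryonic stem cell line of strain 129S4/SvJae, that had been induced towards heart muscle as embryoid bodies formed in hanging drops over 3 days. The 3 NC libraries came from a conventional incubator, and the 3 MF libraries from one that applied a static magnetic field. The labels give both groups the same cells and the same differentiation, and set them apart by the incubator alone. The sources used here give no field strength, exposure time or day of collection. The labels describe biological triplicates without naming separate cultures, so p-values measure the spread between these libraries.

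Every gene in the table had passed a selection by the authors on this same comparison: the authors' deposited table holds no adjusted p above 0.0499 and no log2 fold change smaller in size than 1.001. A call of a family gene therefore adds little to its presence in the table. Igfbp1 and Igf1 also passed the filter on low values only through MF, with NC means of 0.222 and 0.221 FPKM. Library totals lay between 14929232 and 19176383 counts. Of 11 listed cardiomyocyte markers 9 were in the table, at a summed level of 16.3 to 35.6 FPKM in NC and 61.1 to 404 FPKM in MF. That sum was lowest among MF libraries in replicate 2. In RNA from whole aggregates, more cells of a type and more RNA per cell cannot be told apart.

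The 2 binding protein genes lie on mouse chromosome 11 of build mm10, 91838697 bases apart. Igfbp1 occupies 7197782 to 7202546 on the plus strand, with 4 exons in its single annotated transcript, and its neighbour Igfbp3 begins 3539 bases beyond it. Igfbp4 occupies 99041244 to 99054392 on the plus strand, with 4 exons in its principal transcript out of 6 annotated ones. The 250 bases before each RefSeq start are shown because these are the family's binding proteins in the table, and the words found differ between them. The last 5 bases of the Igfbp1 window lie in its annotated first exon. The sequences are RefSeq's for GRCm38.p6, written 5′ to 3′ on the plus strand (chr11:7197537-7197786 and chr11:99040994-99041243), with words found by the search in capitals.
Igfbp1: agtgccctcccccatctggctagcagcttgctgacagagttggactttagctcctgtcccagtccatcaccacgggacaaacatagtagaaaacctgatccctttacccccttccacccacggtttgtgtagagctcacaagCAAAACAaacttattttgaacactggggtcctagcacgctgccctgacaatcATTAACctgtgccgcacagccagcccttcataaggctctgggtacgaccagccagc
Igfbp4: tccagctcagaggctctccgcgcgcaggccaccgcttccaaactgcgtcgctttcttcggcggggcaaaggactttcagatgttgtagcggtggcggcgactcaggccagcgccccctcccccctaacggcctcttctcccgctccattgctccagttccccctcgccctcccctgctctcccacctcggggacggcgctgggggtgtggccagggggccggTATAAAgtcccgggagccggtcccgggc
Both strands were searched for 6 words, chosen after the sequences had been seen. The Igfbp1 window holds CAAAACA, a half-site of the insulin response element, 108 bases before the start; 5.56% of the 32851 RefSeq windows of that length hold it. It also holds ATTAAC, the reverse complement of the HNF1 half-site GTTAAT, 56 bases before the start, a word in 6.43% of windows. The Igfbp4 window holds TATAAA, the TATA box, 28 bases before the start, as do 12.4% of windows. None of the searched words GGGCGG (GC box), CACGTG (E-box) and GTAAACA (a FOXO site) is in either window, and they are in 32.7%, 6.02% and 3.17% of all windows. A match describes letters and is no evidence of binding. The lack of an exact word is no evidence that a factor has no site there. The Igf1 window lies wholly in annotated exons and is not shown; none of the 6 words is in it.

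All 3 family genes were higher in MF, Igfbp1 by the most. The quasi-likelihood test of edgeR, with Benjamini-Hochberg adjustment over the 1651 genes tested, called 3 of 3 at 0.05, and all 3 rose. The same test called 97.5% of all tested genes in either direction and 62.1% as higher in MF, so the count says nothing particular to the family. In all 3 genes every MF library lay above every NC library, as in 58.4% of tested genes. The median log2 fold change was 1.22 over all tested genes and 1.62 over those higher in MF.

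Igf1 encodes the ligand, which in the adult comes largely from the liver and in the embryo is made locally by mesenchymal cells. The gene lies on chromosome 10 from 87858265 to 87937042 on the plus strand. It stood at 0.161, 0.0815 and 0.419 FPKM in NC replicates 1, 2 and 3, from 25, 13 and 62 counts. In MF it stood at 1.15, 0.541 and 1.51 FPKM, from 218, 90 and 243 counts. The groups did not overlap, but the gap was small. The lowest MF library, replicate 2, was 1.29 times the highest NC library, replicate 3, and their counting intervals (95%, exact Poisson) of 0.435 to 0.665 and 0.321 to 0.538 FPKM overlapped. Mean levels were 0.221 ± 0.177 FPKM in NC and 1.07 ± 0.489 FPKM in MF (SD, n = 3). Igf1 thus rose 4.82-fold (log2 fold change 2.27, SE 0.70, edgeR adjusted p = 0.0243), and without NC replicate 3 the log2 fold change was 3.13. The antisense gene Igf1os overlaps Igf1 in the annotation and strand use in counting is not given, so reads of the 2 cannot be told apart.

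Igfbp4 encodes a binding protein made by many mesenchymal and muscle cells that holds IGFs away from the receptor and, apart from this, blocks canonical Wnt signals; that second action was described in mouse stem cells forming heart muscle. It was by far the most abundant gene of the set. Its level was 36.4, 20.1 and 38.0 FPKM in NC replicates 1, 2 and 3 and 129, 53.2 and 126 FPKM in MF replicates 1, 2 and 3. MF replicates 1 and 3 were close to each other, and MF replicate 2 was 1.40 times the highest NC library. The counts behind these values run from 1432 to 10935, so counting error is small beside the spread between libraries. Mean levels were 31.5 ± 9.90 FPKM in NC and 103 ± 43.0 FPKM in MF (SD, n = 3), a rise of 3.26-fold (log2 fold change 1.70, SE 0.48, edgeR adjusted p = 0.0224). Its rank by FPKM among the 2031 genes was between 88 and 188 in the NC libraries and between 25 and 50 in the MF libraries. Its log2 fold change was larger than that of 55.2% of the 1052 tested genes higher in MF, near the middle of them.

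Igfbp1 encodes a binding protein best known from liver and decidua, where insulin lowers its transcription and fasting or hypoxia raises it. It was barely detected in NC. The NC libraries held 1, 11 and 4 counts, or 0.0419, 0.448 and 0.176 FPKM in replicates 1, 2 and 3. The value of NC replicate 1 is under the 0.126 FPKM that 3 counts give there, the limit that a count of 0 allows. The MF libraries held 107, 50 and 453 counts, or 3.66, 1.95 and 18.3 FPKM. MF replicate 3 was thus 9.35 times MF replicate 2, a wider spread than the 2.43 times of Igfbp4 and the 2.79 times of Igf1. The lowest MF library was still 4.36 times the highest NC library, and their counting intervals of 1.45 to 2.57 and 0.224 to 0.801 FPKM did not meet. Mean levels were 0.222 ± 0.207 FPKM in NC and 7.95 ± 8.96 FPKM in MF (SD, n = 3). Igfbp1 thus rose 34.9-fold, with a 95% interval from 6.69 to 182 (log2 fold change 5.13, SE 1.07, edgeR adjusted p = 0.0123). The log2 fold change was 3.63 without MF replicate 3 and 6.14 without NC replicate 2. Its log2 fold change ranked 14 among the 1651 tested genes. That rank rests on 16 counts over the NC libraries. Igfbp1 passed the filter on low values only through MF, so a large fold change was a condition of its being tested.

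**Figure D1:**
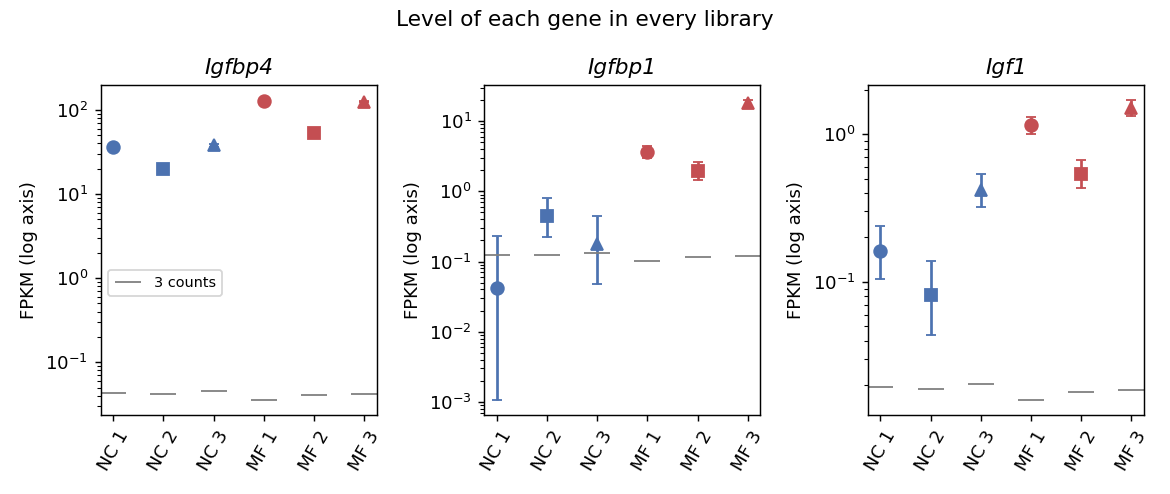
FPKM of Igfbp4, Igfbp1 and Igf1 (log axes, a separate range in each panel) in the NC (blue) and MF (red) libraries; the marker shape gives the replicate number, bars are 95% Poisson intervals of the count and grey ticks mark 3 counts. Every red point is above every blue one, MF replicate 2 is the lowest red point in each panel, and Igfbp1 in MF replicate 3 stands at 18.3 FPKM.

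The libraries did not fall in the same order for the 3 genes. NC replicate 2 was the lowest NC library for Igfbp4 and Igf1 and the highest for Igfbp1, although the latter rests on 11 counts. Relative to the NC mean, MF replicate 2 stood at 0.75 log2 units for Igfbp4, 1.29 for Igf1 and 3.14 for Igfbp1. The median of the 1052 genes higher in MF stood at 1.02 in that library, against 1.80 and 1.74 in MF replicates 1 and 3. Igfbp4 at 2.03 and 2.00 and Igf1 at 2.38 and 2.77 in MF replicates 1 and 3 were nearer that median than Igfbp1, at 4.04 and 6.36.

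**Figure D2:**
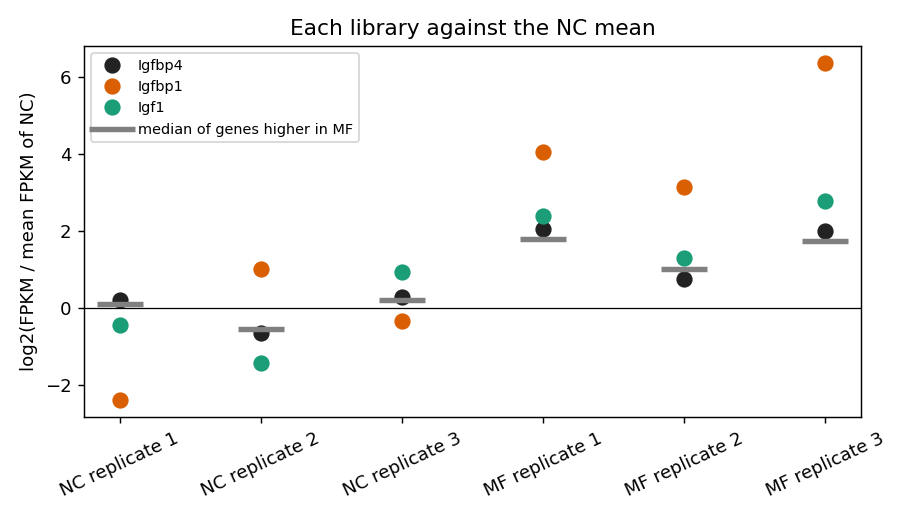
log2 of the FPKM in each library over the NC mean for the 3 genes (points), with the median over the 1052 tested genes higher in MF (grey bars, computed with 0.01 added to each value). In the MF libraries Igfbp4 and Igf1 lie at 0.75 to 2.77, and Igfbp1 at 3.14 to 6.36, beside grey bars at 1.02 to 1.80.

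By level, Igfbp4 was highest, Igfbp1 next and Igf1 lowest in each of the 3 MF libraries. In NC the order of Igfbp1 and Igf1 was not fixed. Igfbp1 and Igf1 had means of 0.222 ± 0.207 and 0.221 ± 0.177 FPKM (SD, n = 3), with Igf1 the higher in NC replicates 1 and 3 and Igfbp1 the higher in replicate 2. The order of these 2 depends on the length used. The deposited length of Igf1, 9904 bases, is the union of the exons of 8 transcripts, while its principal transcript has 1673 bases. With principal transcript lengths Igf1 would stand at 1.31 ± 1.05 in NC and 6.31 ± 2.89 FPKM in MF, against 0.222 and 7.95 FPKM for Igfbp1, whose length is the same by either measure. Fold changes of a gene between groups are untouched by this choice.

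The summed level of the 2 binding proteins was 36.5, 20.6 and 38.2 FPKM in NC and 133, 55.1 and 144 FPKM in MF replicates 1, 2 and 3. Igfbp4 made up nearly all of it in NC. Igfbp1 took 0.115%, 2.18% and 0.460% of that sum in NC and 2.76%, 3.54% and 12.7% in MF. The share was higher in every MF library than in any NC library, but NC replicate 2 and MF replicate 1 lay close together. The NC shares rest on 1, 11 and 4 counts of Igfbp1. The mean share in MF was 6.32%, or 3.15% without MF replicate 3, and the mean share in NC was 0.917%, or 0.287% without NC replicate 2. CPM, which does not divide by length, put these shares at 2.33% and 0.320%.

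Ratios within a library do not depend on how libraries are scaled, and 8 pairs of genes, picked with these values known, were compared. With 3 against 3 libraries an exact two-sided permutation test cannot give a p under 0.1. The log2 ratio of Igfbp1 to Igfbp4 was -7.67 ± 2.14 in NC and -4.23 ± 1.27 in MF (SD, n = 3), higher in 3 of 3 MF libraries than in any NC library (exact permutation p = 0.1, 0.267 adjusted over the 8 pairs). The gap was small, between -5.49 in NC replicate 2 and -5.14 in MF replicate 1. The NC ratios rest on 1, 11 and 4 counts of Igfbp1, and whether counting error covers the gap was not tested. The ratio of Igf1 to Igfbp4 overlapped between groups, at -7.42 ± 0.80 in NC and -6.61 ± 0.21 in MF (exact permutation p = 0.3, adjusted 0.48). The difference in the ratio of Igf1 to Igfbp4 was 0.82 log2 units. It was -7.82, -7.95 and -6.50 in NC replicates 1, 2 and 3 and -6.81, -6.62 and -6.38 in MF replicates 1, 2 and 3. NC replicate 3 thus lay above MF replicates 1 and 2. The log2 ratio of Igfbp1 to Igf1 overlapped as well (exact permutation p = 0.3, adjusted 0.48).

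Igf2, the ligand of the embryo and an imprinted gene, was much more abundant than Igf1 and rose beside it. It stood at 8.31, 3.43 and 8.81 FPKM in NC and 51.9, 13.4 and 33.9 FPKM in MF, with a log2 fold change of 2.27 (SE 0.57, edgeR adjusted p = 0.0185). The ratio of Igfbp4 to Igf2 was 4.38, 5.87 and 4.31 in NC and 2.49, 3.97 and 3.72 in MF, lower in each MF library than in any NC library. On the log2 scale the ratio was 2.26 ± 0.25 in NC and 1.73 ± 0.37 in MF (SD, n = 3), a difference that could not pass in this design (exact permutation p = 0.1, adjusted 0.267). The summed binding proteins over the summed ligands Igf1 and Igf2 lay between 4.14 and 5.86 in NC and between 2.50 and 4.07 in MF. The groups did not overlap, but the gap between 4.07 and 4.14 was narrow. The ratios of Igf1 and of Igf2r to Igf2 overlapped between groups (exact permutation p = 0.8 and 0.9, both 0.9 adjusted).

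**Figure D3:**
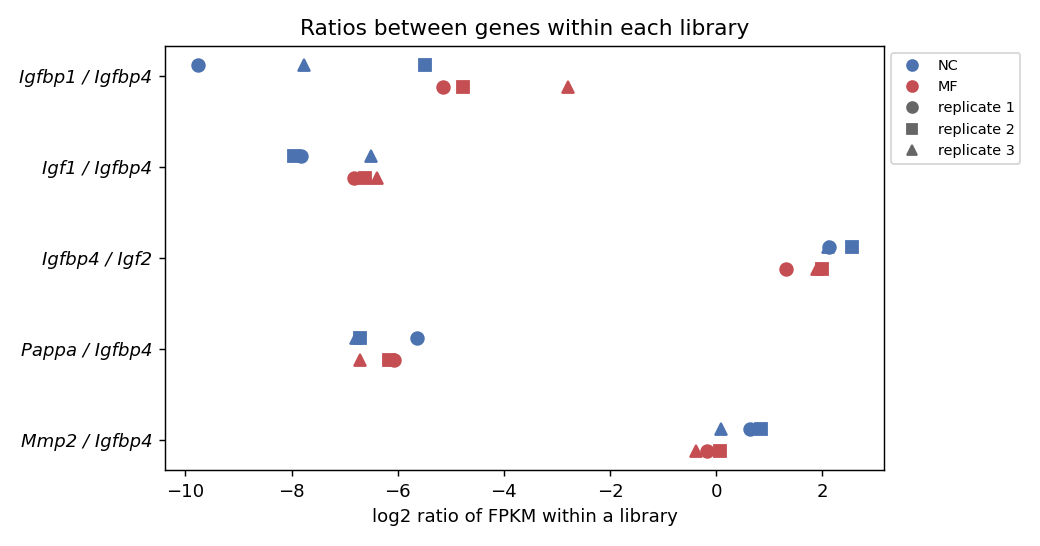
log2 ratio of FPKM between 2 genes within each library, for 5 of the 8 pairs (NC blue, MF red, marker shape by replicate number). Igfbp1 over Igfbp4 is higher in every MF library than in any NC library, Igfbp4 over Igf2 is lower, and Igf1 and Pappa over Igfbp4 overlap between groups. The NC values of Igfbp1 over Igfbp4 rest on 1, 11 and 4 counts of Igfbp1.

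Other genes of the pathway were counted over lists chosen with earlier results of these data known. Of 105 listed genes 17 were in the table and 16 were tested; 15 rose and 1 fell, and among the 15 Mmp2 turned direction with median-of-ratios scaling. The same edgeR test called 97.5% of all tested genes. Their median log2 fold change was 1.58, against 1.22 over all tested genes. Groups did not overlap for 14 of the 17, against 93.2% of the 2031 genes. Among the tested pathway genes edgeR called 7, 6 and 8 without NC replicates 1, 2 and 3, beside 38.8%, 44.5% and 61.3% of all tested genes. Without MF replicates 1, 2 and 3 the number was 5, 16 and 0, beside 27.1%, 95.6% and 0.727% of all tested genes. With TMM scaling 5 were called and with median-of-ratios scaling 0, by edgeR, beside 53.3% and 40.3% of all tested genes. The list of IGF2 mRNA-binding proteins had none of its 3 genes in the table.

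Igf2r and Ghr were the only receptors of the pathway lists in the table, so no other receptor is ranked here. Igf2r, which clears IGF2 from the cell surface without growth signalling, was the more abundant. Its level was 14.2, 20.8 and 18.0 FPKM in NC and 106, 24.3 and 76.8 FPKM in MF replicates 1, 2 and 3. MF replicate 2 was just 1.17 times the highest NC library, and the gene rose 3.92-fold (log2 fold change 1.97, SE 0.55, edgeR adjusted p = 0.0218). The growth hormone receptor Ghr, which drives Igf1 transcription in liver, rose 3.24-fold from 1.26 ± 0.488 to 4.08 ± 1.26 FPKM (SD, n = 3). Its groups were clearly apart, the lowest MF value being 1.54 times the highest NC value. Igf2r was not called with TMM or median-of-ratios scaling (edgeR adjusted p = 0.0866 and 0.260). Ghr was called with TMM scaling but not with median-of-ratios scaling (edgeR adjusted p = 0.0480 and 0.135).

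Inside the cell, 2 of 23 listed adaptors and 1 of 30 listed genes of the PI3 kinase, AKT, FOXO and mTOR arm were in the table, and all 3 rose. Of all tested genes, edgeR called 97.5%, and 62.1% as higher in MF. Irs1, the docking protein phosphorylated by the IGF1 receptor, rose 2.80-fold from 1.33 ± 0.686 to 3.73 ± 1.54 FPKM (SD, n = 3). Its groups nearly touched, with MF replicate 2 at 2.10 FPKM and NC replicate 1 at 2.08. Dok4, a docking protein of receptor tyrosine kinases, rose 5.44-fold from 5.04 ± 2.24 to 27.5 ± 17.5 FPKM, again with MF replicate 2 low at 7.58 FPKM beside 7.17 in NC replicate 3. Pik3r1, the regulatory subunit of PI3 kinase, rose 2.09-fold and was even across the MF libraries, at 3.78, 3.76 and 4.13 FPKM against 1.64, 1.49 and 2.46 in NC. Its log2 fold change of 1.06 became 0.37 with TMM scaling (edgeR adjusted p = 0.282) and 0.04 with median-of-ratios scaling (edgeR adjusted p = 0.930). Irs1 was not called with either scaling (edgeR adjusted p = 0.152 and 0.435). Dok4 was called with TMM scaling but not with median-of-ratios scaling (edgeR adjusted p = 0.0384 and 0.0735).

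Of 25 listed partners and proteases of the binding proteins 9 were in the table and 8 were tested, of which 7 rose and 1 fell. The same edgeR test called 97.5% of all tested genes, 62.1% as higher in MF, so these counts say nothing particular to the list. Pappa, the metalloprotease that cuts IGFBP4 and so frees the growth factor, was singled out after its values were seen. It stood at 0.736, 0.191 and 0.346 FPKM in NC and 1.92, 0.739 and 1.21 FPKM in MF. Its NC mean of 0.424 FPKM lay below the filter on low values, which it passed only through MF. It rose 3.03-fold (log2 fold change 1.60, SE 0.61, edgeR adjusted p = 0.0329), although MF replicate 2 and NC replicate 1 were nearly equal. The log2 ratio of Pappa to Igfbp4 was -6.38 ± 0.65 in NC and -6.32 ± 0.34 in MF, with overlapping groups (exact permutation p = 0.8, adjusted 0.9).

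The matrix metalloproteases Mmp2 and Mmp14, which cut collagens and also IGF binding proteins, rose 2.01-fold and 2.28-fold. Mmp2 went from 44.4 ± 10.7 to 89.1 ± 30.1 FPKM (SD, n = 3), with MF replicate 2 at 56.1 just below NC replicate 1 at 56.5; with median-of-ratios scaling its log2 fold change was -0.10. The log2 ratio of Mmp2 to Igfbp4 was 0.52 ± 0.38 in NC and -0.16 ± 0.23 in MF, with no overlap of the groups (exact permutation p = 0.1, adjusted 0.267). Adamts1 and Plat, proteases of proteoglycans and of plasminogen, rose 4.67-fold and 3.40-fold. The groups of Adamts1 overlapped, with MF replicate 2 at 5.85 FPKM below NC replicate 3 at 7.64. Adam12 and Htra3 were the other tested members that rose, and C1ra lay below the filter on low values; with no filter it passed the test too. The lone fall was Klk1, a kallikrein, from 2.46 ± 1.16 to 0.515 ± 0.526 FPKM, on 2 to 66 counts a library. Whether reads of related kallikrein genes entered its count was not tested. Of 10 listed proteins outside the family that carry an IGFBP domain, Ccn4 and Crim1 were in the table and rose 2.94-fold and 2.22-fold; the groups of Ccn4 overlapped. With median-of-ratios scaling the log2 fold changes of Mmp14, Htra3 and Crim1 were 0.17, 0.13 and 0.00.

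**Figure D4:**
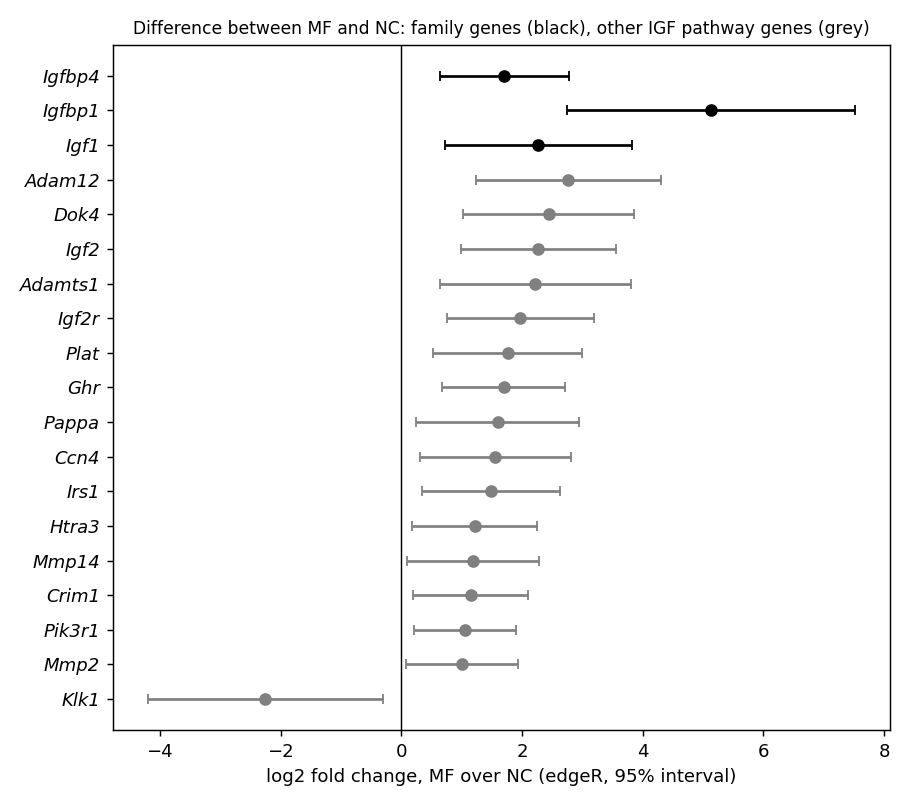
log2 fold change of MF over NC with its 95% interval from edgeR's quasi-likelihood fit, for the 3 family genes (black) and the 16 other tested pathway genes (grey). Igfbp1 has the largest value, 5.13, and the widest interval among the family genes, and Klk1 alone lies below 0 (with median-of-ratios scaling Mmp2 did so too).

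The genes nearest in pattern were found by the root mean square distance between centred log2(FPKM + 1) profiles over the 6 libraries, among 561 tested protein-coding genes whose mean was 5 FPKM or more. Nearest to Igfbp4 were Efnb1 and Ehd2, at distances of 0.0997 and 0.119 against 0.954 for the spread of Igfbp4 about its own mean. Efnb1, which encodes ephrin-B1, stood at 15.0, 7.43 and 15.4 FPKM in NC and 45.8, 20.1 and 44.5 in MF, an almost parallel profile. Nearest to Igf1 were Slc40a1 and Epm2aip1, at 0.144 and 0.147 against 0.440. The added 1 compresses a gene as low as Igf1, so this match is to smaller changes of higher genes: Slc40a1 stood at 4.22, 3.20 and 5.64 FPKM in NC and 9.98, 6.91 and 11.7 FPKM in MF. Igfbp1 had no close match in that group of genes: Gpr50 and Tbx2 came nearest at 0.577 and 0.595 against 1.46.

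Markers of cell types that could carry these genes moved with the groups. So did most tested genes, as edgeR called 97.5% of them, 62.1% as higher in MF. Of 12 listed mesenchyme and fibroblast markers 10 were in the table and all 10 rose; their summed level was 91.3 to 249 FPKM in NC and 226 to 1164 FPKM in MF. As for Igfbp4, NC replicate 2 and MF replicate 2 were the lowest libraries of their groups. The same held for the median of the 1052 tested genes higher in MF and for the summed parietal endoderm and trophoblast markers. Of 12 endothelial markers 7 were in the table, 6 rose and Pecam1 fell, with summed levels of 15.0 to 45.4 FPKM in NC and 27.7 to 51.8 FPKM in MF. Of 22 listed markers of visceral endoderm and hepatocytes, Foxa1 alone was in the table, at 1.11, 1.38 and 3.24 FPKM in NC and 3.43, 8.25 and 5.41 FPKM in MF. Foxa1 was highest in MF replicate 2, where Igfbp1 was the lowest of the MF libraries. Foxa1 by itself cannot give the level of these cells. The 16 listed parietal endoderm and trophoblast markers had 5 in the table, all of which rose, with sums of 32.1 to 69.5 FPKM in NC and 86.1 to 183 FPKM in MF. Of 12 pluripotency markers 4 were in the table and all 4 fell, from sums of 274 to 750 FPKM in NC to 65.5 to 185 FPKM in MF. The lists for smooth muscle, cartilage and bone, and neurons had 0 of 7, 2 of 9 and 1 of 9 genes in the table, of which Acan and Alpl fell. The part of these cell types in the changes of Igfbp4, Igfbp1 and Igf1 was not tested.

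The calls rest on an adjustment over genes that had been selected on these same libraries. The authors' p-values before and after adjustment imply 19069 tests. Adjusted over that many, edgeR called 0 of the 3 family genes and 0.0% of tested genes, while 97.7% of these had an unadjusted p under 0.05. The edgeR adjusted p was then at most 0.142 for Igfbp1, 0.258 for Igfbp4 and 0.280 for Igf1. These are upper bounds, because ranks were known among the tested genes alone. Over the same number of tests DESeq2 called all 3 family genes and 36.2% of tested genes, and a blocked edgeR fit, pairing libraries by replicate number, called 2 of 3 and 30.5%.

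Scaling and single libraries also decided calls. TMM scaling called Igfbp1 alone (log2 fold change 4.27, edgeR adjusted p = 0.0264), with 0.99 for Igfbp4 and 1.58 for Igf1, and called 53.3% of tested genes, 17.6% as higher. Median-of-ratios scaling called Igfbp1 alone at 3.82 and 40.3% of tested genes, 9.57% as higher. Both scalings were computed from the tested genes alone, of which edgeR with library totals called 62.1% as higher in MF. Without MF replicate 3 edgeR called 0 of the 3 family genes and 0.727% of tested genes, with adjusted p from 0.0634 to 0.0935. Igfbp4 also lost its call without MF replicate 1 (edgeR adjusted p = 0.0522), and Igf1 without NC replicate 1 (edgeR adjusted p = 0.0590).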

How the data were processed

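RNA sequencing of poly-A RNA from 3 NC and 3 MF libraries was analysed. Per the submitters' processing notes, HISAT2 2.0.5, featureCounts and build mm10 were used; settings, strand use and the tool of the authors' comparison are not stated there. Per the file headers, the authors deposited a raw count, an FPKM value and a normalized signal per gene and library. The deposited tables also carry, for MF against NC, the log2 ratio found by the authors with its p-value before and after adjustment. FPKM equalled the count divided by the deposited gene length and a constant library total, and the signal equalled the count over a constant size factor; the totals were recovered from this. Gene coordinates and lengths equalled those of GENCODE M21 for the 3 genes.

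Genes with a name and a mean level no lower than 0.5 FPKM (1651; 332 others fell below, and 48 rows without a name, at most 0.0390% of a library, stayed out) were tested with edgeR 4.0.16 in R 4.3.3. The quasi-likelihood test used group alone, the recovered totals as library sizes, two-sided p-values and Benjamini-Hochberg adjustment at 0.05 over all tested genes. SE is the log2 fold change over the square root of F. The number of authors' tests, 19069, came from their p and adjusted p at the top 30 ranks; ranks among deposited genes alone make adjusted p-values over it upper bounds. Alternatives used TMM, DESeq2 1.42.0, limma 3.58.1, other filters, pseudocounts and left-out libraries. The fit was tested on simulated data.

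Same-numbered NC and MF libraries deviated together from their group means (correlations across genes of 0.40, 0.54 and 0.35), though NC replicate 3 and MF replicate 1 did so at 0.54 as well. They were taken as pairs in the blocked fit; the pairing comes from the values, not a label. No 2 libraries agreed within sampling noise (chi-square per degree of freedom of at least 24.2). Intervals and floors cover counting error alone. The members, lists and tests were chosen with earlier results of these data known. Every family gene is named; of longer pathway lists, up to 4 members with the highest FPKM get values, with Pappa and Klk1 added after their values were seen.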

Additional observations from a re-analysis of the deposited data

How the results depend on the processing

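The 3 family genes were higher in MF under every alternative run. Over 19 alternatives the log2 fold change ran from 0.61 to 2.02 for Igfbp4 (adjusted p up to 0.258) and from 2.41 to 6.60 for Igfbp1 (adjusted p up to 0.142), and over 18 from 0.74 to 3.13 for Igf1 (adjusted p up to 0.280). The 3 called family genes became 1 (Igfbp1) with TMM or median-of-ratios scaling and 0 with adjustment over the recovered tests. The 16 called pathway genes became 5, 0 and 0, beside 53.3%, 40.3% and 0.0% of all tested genes. These scalings, computed on a table with mostly higher genes, moved the median log2 fold change by -0.70 and -1.05, and the share of tested genes called as higher was 17.6% and 9.57%. The size factors recovered from the authors' signal left both counts at 3 and 16, beside 97.5% of all tested genes. Over the recovered tests, chosen after seeing the data, DESeq2 called 5 pathway genes and the fit with the replicate block 8, with 2 family genes in the latter. Of all tested genes these fits called 36.2% and 30.5%. With the replicate block and the usual adjustment both counts stayed at 3 and 16, beside 98.1% of all tested genes. Leaving out 1 library gave 0 to 3 family genes and 0 to 16 pathway genes, beside 0.727% to 95.6% of all tested genes, with the lowest of each without MF replicate 3. The median-of-ratios log2 fold change of Mmp2 was -0.10. The ratio of the summed binding proteins, MF over NC, was 3.49. It stayed between 2.96 and 4.36 with CPM, with principal transcript lengths or with 1 library left out. The sum was not rerun with TMM or median-of-ratios scaling, which lowered the log2 fold change of Igfbp4 from 1.70 to 0.99 and 0.61. The share of Igfbp1 in the sum went from 6.32% to 2.33% in MF with CPM, which does not divide by length. The cause of these shifts was not tested. Depth limits Igfbp1 in NC, with 16 counts over 3 libraries.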
